A study of Mus musculus with 4 samples.

Results

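The genes described here are those of glycolysis and of the response to low oxygen in cultured mouse osteoblasts, the cells that form bone. The 34 genes were chosen by name, 21 for glucose uptake, glycolysis and the fate of pyruvate and 13 as hypoxia response genes. Each was read by its brightest probe set, a group of short array probes for 1 transcript, among the probe sets that the platform annotation gives 1 gene symbol. Of the 34 genes, 31 had such a probe set, out of 18194 genes in all. Of those 31 genes, 30 lay above a brightness filter, the median of all non-control probe sets (an intensity of 66.2), as did 11662 genes of the whole array. No probe set with 1 symbol was listed for Gpi1, Eno1 or Bnip3l, and Slc2a3 was below the filter.

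Glycolysis splits glucose into pyruvate and yields ATP without oxygen. When oxygen is short, the prolyl hydroxylases of the Egln family stop marking the alpha subunits of hypoxia-inducible factor (HIF) for destruction, and HIF raises transcription of glucose transporters, glycolytic enzymes and genes that restrain mitochondria. Insulin acts on glucose use in many cells, and osteoblasts are known for a high rate of glycolysis with release of lactate.

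RNA of osteoblasts was hybridised to 4 Affymetrix arrays, 1 each for a control at 0 h and for cells given 10 nM insulin for 6, 12 and 24 h after serum starvation. All groups carry the same deletion by the labels, which name the IGF-1 receptor in the growth protocol and IGF-1 itself in the genotype entry, and signals of both genes were present on all 4 arrays (Igf1r 388, 259, 265 and 319, Igf1 1641, 5532, 5983 and 6024 at 0, 6, 12 and 24 h). The sources do not say whether those probes lie in a deleted part. With 1 array a group there is no spread between replicates, no test and no error, and every difference below is between single arrays, whose number limits the precision. No later untreated array was used here. The effect of insulin, that of hours in culture and any other difference of the 0 h sample, such as those given next, cannot be told apart.

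Several measures set the 0 h array apart and stand beside every difference from it. The X-inactivation transcript Xist had 109, 1636, 1278 and 1463, and the Y-linked gene Eif2s3y had 12.2, 295, 305 and 326 at 0, 6, 12 and 24 h. Of 7 osteoblast markers 4 had a probe set with 1 symbol (Col1a1, Sp7, Alpl and Ibsp), all above the filter over the arrays, with summed intensities of 14126, 30498, 36613 and 38254. Alpl and Sp7 were below the filter value at 0 h (61.5, 523, 919.7 and 1139.5 and 60.8, 125, 161 and 213), so 2 defining markers of the labelled cell type were near background there. Col1a1 (13802, 21001, 23827 and 23754.5) and Ibsp (202, 8849, 11705.5 and 13147) were above the filter value on all arrays, and Col1a1 made up most of the sum at 0 h. Of 6 macrophage markers 5 were named and 3 were above the filter, with sums of 461, 4576, 5705 and 6452 over the 5, and Itgam and Ptprc were below it. Of 5 adipocyte markers 4 were named, with sums of 10435, 3989, 6346 and 8205, but they differed in direction from 0 h. Lpl carried the lower sum (9525, 1492, 2394 and 3035) and Pparg had 223, 107, 184 and 196, while Adipoq (23.4, 511, 885 and 1141) and Fabp4 (664, 1879, 2883 and 3834) were higher on the insulin arrays. Endothelial and skeletal muscle markers had 1 of 4 and 2 of 5 above the filter, with sums of 193, 225, 192 and 206 and of 409, 1951, 2050.3 and 1879.9. Acta1 alone carried the higher muscle sum (130.2, 1712, 1802 and 1626), while Des had 111, 92.0, 90.9 and 89.3 and Ckm, Myog and Mylpf were below the filter. The part of these cell types in the results was not tested, and in bulk RNA fewer cells of a type and less RNA per cell cannot be told apart. The 3′ over 5′ ratio of the Gapdh control probes, a sign of RNA integrity, was 0.897, 0.964, 0.995 and 1.03, and that of Actb was 1.296, 1.260, 1.412 and 1.392.

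Against the 0 h array, 17, 17 and 16 of the 30 genes were at least 1.5-fold higher at 6, 12 and 24 h. Among all 11662 genes 18.6%, 20.5% and 19.5% were. Of the higher genes, 4 (Slc16a3, Car9, Pfkfb3 and Aldoc) lay below the filter value at 0 h and passed through the insulin arrays, so they had to differ and the counts are a description. At least 1.5-fold lower were 2, 2 and 2 of the 30, against 12.8%, 13.3% and 13.3% of all genes. The median log2 difference of the 30 was 0.88, 0.75 and 0.65 at the 3 times, against 0.01, 0.03 and 0.00 over all genes. At all 3 times 16 of 30 were 1.5-fold higher (17% of all genes) and 2 were 1.5-fold lower (10.5%). The 3 differences share the 0 h array, so they are not separate evidence. By function, 9, 9 and 9 of 18 glycolysis genes and 8, 8 and 7 of 12 hypoxia genes were 1.5-fold higher. The lower genes were Pfkm in glycolysis and Kdm3a among the hypoxia genes.

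**Figure D1:**
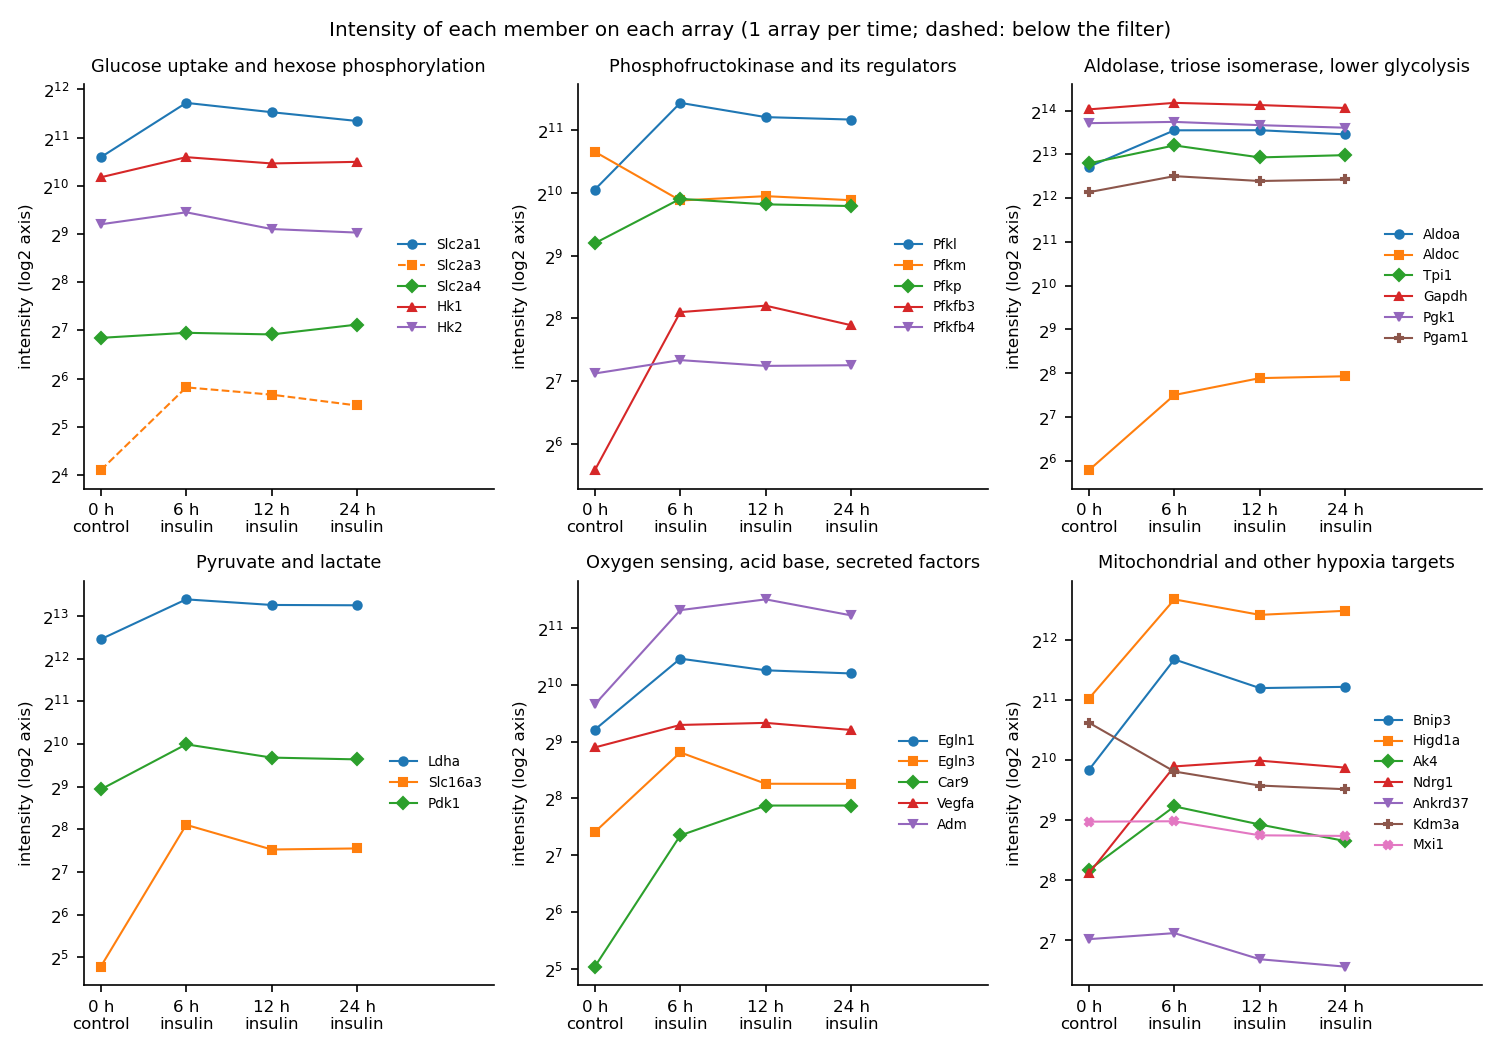
Intensity of the 31 measured genes (vertical axis, log2 scale, arbitrary units) on the control array at 0 h and the insulin arrays at 6, 12 and 24 h, by pathway step, with 1 array per point and lines joining points of 1 gene; the dashed line is Slc2a3, below the filter. Most lines step up between 0 and 6 h and then lie level or lower, while Pfkm and Kdm3a step down.

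Glucose enters cells through transporters of the Slc2a family. Slc2a1, the transporter of basal uptake, had intensities of 1543, 3371, 2948 and 2598 at 0, 6, 12 and 24 h, which is 2.19, 1.91 and 1.68-fold higher than at 0 h. Its other 2 probe sets gave 945, 2160.2, 1799 and 1553 and 313, 804, 616 and 589, so all 3 were highest at 6 h and lowest at 0 h. Slc2a4, the transporter that insulin moves to the surface of muscle and fat cells, had 115, 124, 121 and 139, less than 1.5-fold from 0 h on each array. The high-affinity transporter Slc2a3 was below the filter with 17.2, 56.5, 50.8 and 43.5, where a fold is set by background.

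Hexokinases trap glucose in the cell by phosphorylation. Hk1 had 1157, 1545, 1411 and 1444, at most 1.34-fold above 0 h. Hk2, the insulin-responsive hexokinase of muscle and fat, had 588, 699, 549.8 and 522 and lay on either side of 0 h. Neither reached 1.5-fold at any time.

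The subunits of phosphofructokinase, which commits sugar to glycolysis, differed in direction. Pfkl, the liver-type subunit, had 1063, 2772, 2368 and 2305 and was 2.61, 2.23 and 2.17-fold higher. Pfkp, the platelet type, had 587, 959, 903 and 886 and was 1.63, 1.54 and 1.51-fold higher. Pfkm, the muscle-type subunit, went the other way with 1615, 942, 988 and 945, which is 1.71, 1.63 and 1.71-fold lower by its single probe set. Thus 2 of the 3 subunit genes were higher and 1 lower than at 0 h at all times. A second Pfkp probe set did not bear out the size, with 269.6, 372, 265 and 245, and Pfkm crossed back over the 1.5-fold line at 12 and 24 h once the median of its chromosome 15 was subtracted.

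Pfkfb3 and Pfkfb4 encode enzymes that make and break the sugar bisphosphate that activates phosphofructokinase. Pfkfb3 had 47.8, 274, 294 and 237, which is 5.74, 6.16 and 4.96-fold higher, although it started below the filter value at 0 h. Its other probe set was below the filter with 51.3, 81.2, 66.5 and 65.0, the same side of 0 h with a smaller gap. Pfkfb4 had 139, 161, 151 and 152, so the related gene stayed within 1.2-fold of 0 h on all arrays.

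At the aldolase step, Aldoa had 6738, 11992, 12012 and 11246 and was 1.78, 1.78 and 1.67-fold higher. All of its 5 probe sets have a suffix that marks probes shared with other transcripts, and all 5 were above 0 h on the insulin arrays. Aldoc, the brain-type aldolase, had 55.2, 182, 237 and 244, again from below the filter value, and was 3.29, 4.29 and 4.42-fold higher. Tpi1, the triose isomerase, had 7105, 9441, 7806 and 8097, at most 1.33-fold above 0 h.

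The 3 measured members of lower glycolysis were bright and at most 1.29-fold above the 0 h level, and Eno1 was not measured. Gapdh, read from control probe sets that carry its symbol alone, had 16708, 18521, 17888 and 17071. Pgk1, which makes the first ATP of the pathway, had 13433, 13702, 13011 and 12498 and lay on either side of 0 h. Pgam1, the phosphoglycerate mutase, had 4502, 5806, 5374 and 5506. None of these 3 genes was 1.5-fold from 0 h on any array.

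The pyruvate and lactate genes were all higher. Ldha, the lactate dehydrogenase subunit that favours lactate, had 5631, 10771, 9834 and 9783 and was 1.91, 1.75 and 1.74-fold higher. Slc16a3, the lactate exporter of glycolytic cells, had 27.5, 276, 184 and 188, so it was near background at 0 h and 10.0, 6.72 and 6.83-fold higher after that. Pdk1, a kinase that shuts pyruvate dehydrogenase, had 490.0, 1020.3, 822 and 798 and was 2.08, 1.68 and 1.63-fold higher. Its other probe sets above the filter gave 369, 776, 596 and 580.3 and 188, 559, 504 and 489, also highest at 6 h.

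**Figure D2:**
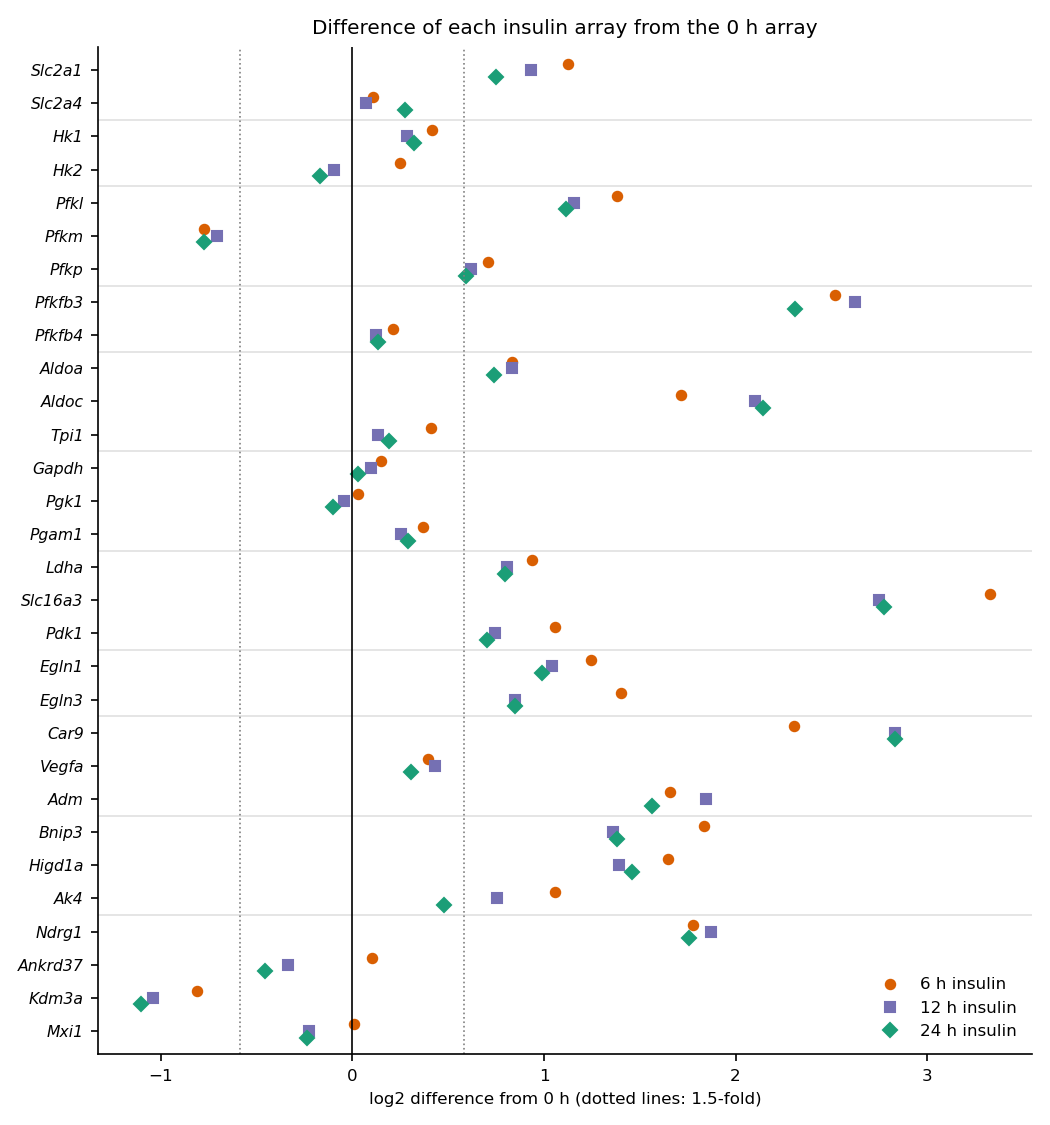
Log2 difference of each insulin array from the 0 h array (horizontal axis) for the 30 genes above the filter, in pathway order, with 1 point per array and dotted lines at 1.5-fold. Slc16a3, Car9 and Pfkfb3 lie farthest right, Pfkm and Kdm3a lie left of the lower line at all 3 times, and Gapdh, Pgk1 and Pgam1 lie between the dotted lines.

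The promoters of the 4 glycolysis genes farthest from 0 h are shown because all 4 were higher and because HIF binds a short core, ACGTG or GCGTG. They run from 250 bases before to 50 after the first start listed, 5′ to 3′ on the strand of the gene, from RefSeq on GRCm38.p6. Capitals mark a match to either core on either strand (so CACGT and CACGC count, and CACGTG, which is also the E-box of Myc-type factors, counts on both strands). Slc16a3 (chr11:120948817-120949116, plus strand) has 2 matches of ACGTG, starting 27 and 14 bases before the start. Pfkfb3 (chr2:11553880-11554179, minus strand) has 1 match, 60 bases before it. Aldoc (chr11:78322823-78323122, plus strand) has 3 matches, of which 1 lies before the start, and Pfkl (chr10:78009758-78010057, minus strand) has 1 of GCGTG, 99 bases before it.
Slc16a3: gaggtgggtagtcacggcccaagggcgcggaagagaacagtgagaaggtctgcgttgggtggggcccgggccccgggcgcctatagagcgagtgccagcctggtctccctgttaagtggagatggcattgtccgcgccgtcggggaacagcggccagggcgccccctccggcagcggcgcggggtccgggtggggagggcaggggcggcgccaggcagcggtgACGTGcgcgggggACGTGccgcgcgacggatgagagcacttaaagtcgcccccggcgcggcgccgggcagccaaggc
Pfkfb3: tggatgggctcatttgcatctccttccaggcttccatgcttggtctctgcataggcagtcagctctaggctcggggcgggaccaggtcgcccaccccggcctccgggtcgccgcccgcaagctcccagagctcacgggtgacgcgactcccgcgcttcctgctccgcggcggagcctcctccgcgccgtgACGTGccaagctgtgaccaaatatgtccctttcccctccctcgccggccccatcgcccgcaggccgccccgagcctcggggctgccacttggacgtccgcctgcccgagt
Aldoc: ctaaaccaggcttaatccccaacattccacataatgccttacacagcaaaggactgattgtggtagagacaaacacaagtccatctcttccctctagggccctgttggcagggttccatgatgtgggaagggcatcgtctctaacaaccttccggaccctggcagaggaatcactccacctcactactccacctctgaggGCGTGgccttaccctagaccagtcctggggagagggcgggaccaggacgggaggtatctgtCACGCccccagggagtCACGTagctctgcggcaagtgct
Pfkl: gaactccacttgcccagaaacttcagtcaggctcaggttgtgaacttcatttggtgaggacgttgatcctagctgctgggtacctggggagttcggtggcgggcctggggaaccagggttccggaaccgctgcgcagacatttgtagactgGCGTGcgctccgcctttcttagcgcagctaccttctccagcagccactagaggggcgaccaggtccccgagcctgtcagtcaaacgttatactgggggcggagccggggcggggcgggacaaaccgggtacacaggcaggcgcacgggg

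Among the hypoxia genes, both oxygen sensors were higher than at 0 h. Egln1, the main HIF prolyl hydroxylase, had 592, 1406, 1220.0 and 1174 and was 2.38, 2.06 and 1.98-fold higher, with a second probe set at 227, 544, 455 and 441. Egln3, a hydroxylase that is itself a HIF target, had 170.0, 449, 306 and 306 and was 2.64, 1.80 and 1.80-fold higher. Its second probe set gave 169, 264, 202 and 188, which is the same order of arrays with smaller gaps, 1.5-fold above 0 h at 6 h and not later.

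Car9, a surface carbonic anhydrase that exports acid equivalents, had 32.9, 163, 235 and 235 and was 4.95, 7.13 and 7.13-fold higher, from a value near background at 0 h. Adm, the vasodilator peptide adrenomedullin, had 805, 2541, 2896 and 2383 and was 3.15, 3.60 and 2.96-fold higher, with its second probe set at 464, 1558, 1557 and 1293. Vegfa, the angiogenic growth factor, had 476, 627, 643 and 589.7, under 1.5-fold on each array. Its other probe set, 433, 433, 404 and 372, lay below 0 h, so no direction is given for it.

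Genes acting at mitochondria were higher as well. Bnip3, a receptor for removal of mitochondria, had 913, 3259.5, 2343 and 2376 and was 3.57, 2.57 and 2.60-fold higher. Higd1a, a small inner membrane protein, had 2078, 6509, 5445 and 5705 and was 3.13, 2.62 and 2.75-fold higher. Ak4, a matrix adenylate kinase, had 288, 599.7, 487 and 402 and was 2.08, 1.69 and 1.39-fold higher, so it was under 1.5-fold at 24 h. The 4 probe sets of Ak4 above the filter disagreed, at mean log2 differences from 0 h between -0.079 and 1.02.

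The remaining hypoxia genes diverged. Ndrg1, a stress-responsive gene, had 277, 950.2, 1016 and 937 and was 3.42, 3.66 and 3.38-fold higher, and its 5 probe sets lay 0.43 to 1.87 above 0 h in mean log2 difference. Kdm3a, a histone demethylase and known HIF target, had 1572, 896, 763 and 731 and was 1.75, 2.06 and 2.15-fold lower. Ankrd37 had 130.0, 139, 103 and 94.7 and Mxi1, an antagonist of Myc, 503, 505, 429.7 and 427, both within 1.5-fold of 0 h by the probe set used. The 3 genes rest on 1, 1 and 2 probe sets for Kdm3a, Ankrd37 and Mxi1, and both of Mxi1 were lowest at 24 h. The second Mxi1 probe set gave 181, 162, 137 and 118, past 1.5-fold lower than 0 h at 24 h and not earlier.

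The promoters of the 4 hypoxia genes farthest from 0 h with a table entry follow, drawn in the same way. Car9 (chr4:43506776-43507075, plus strand) has 1 match, 18 bases before the start. Adm (chr7:110627407-110627706, plus strand) has 2 of GCGTG. Bnip3 (chr7:138909457-138909756, minus strand) has 5, between 117 and 35 bases before the start, with 1 CACGTG. Higd1a (chr9:121857747-121858046, minus strand) has 3, of which 2 overlap.
Car9: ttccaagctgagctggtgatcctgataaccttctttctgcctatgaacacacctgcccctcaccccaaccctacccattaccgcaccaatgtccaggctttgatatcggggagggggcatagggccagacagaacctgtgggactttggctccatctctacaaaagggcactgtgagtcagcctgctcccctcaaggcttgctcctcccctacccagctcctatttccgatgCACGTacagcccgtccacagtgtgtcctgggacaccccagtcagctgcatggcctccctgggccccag
Adm: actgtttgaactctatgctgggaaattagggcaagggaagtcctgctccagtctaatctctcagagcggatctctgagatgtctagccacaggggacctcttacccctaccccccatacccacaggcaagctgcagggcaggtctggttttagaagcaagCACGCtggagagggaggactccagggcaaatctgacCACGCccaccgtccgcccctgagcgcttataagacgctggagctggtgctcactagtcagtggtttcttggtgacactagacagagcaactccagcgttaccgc
Bnip3: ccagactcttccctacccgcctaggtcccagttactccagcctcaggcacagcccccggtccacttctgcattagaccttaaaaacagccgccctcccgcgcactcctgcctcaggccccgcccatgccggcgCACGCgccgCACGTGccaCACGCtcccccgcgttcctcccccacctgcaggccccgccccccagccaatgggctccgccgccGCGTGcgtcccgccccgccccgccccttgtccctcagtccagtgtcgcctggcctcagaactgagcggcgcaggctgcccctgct
Higd1a: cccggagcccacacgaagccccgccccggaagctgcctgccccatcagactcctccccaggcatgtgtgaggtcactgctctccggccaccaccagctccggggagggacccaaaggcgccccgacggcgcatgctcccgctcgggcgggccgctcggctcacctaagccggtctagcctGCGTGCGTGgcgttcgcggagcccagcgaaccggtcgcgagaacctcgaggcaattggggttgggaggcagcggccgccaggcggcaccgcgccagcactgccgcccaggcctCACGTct

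Of the 34 genes 30 had a promoter entry, and 28 of these 30 had either core at a listed start. They are not the 30 above the filter, as Gpi1 and Eno1 had an entry and Slc2a4 and Ndrg1 had none. Of 9426 genes above the filter with an entry, 67.3% had one at any start, and of all 27025 genes with an entry 46.7%. By promoter, 80.0% of the 50 of the set had a match, against 61.3% of 12078 for genes above the filter, with median GC contents of 62.7% and 61.0%. Of all 32851 listed promoters 43.8% had one. The set was chosen by name for these pathways and holds known HIF targets, and the match is a description of letters, not of binding. Promoters of 1 gene can overlap and share a match, as for Ak4, so they are not separate. Kdm3a, lower than 0 h, and Slc2a1, higher, both had a match, while Tpi1 had none in this window.

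**Figure D3:**
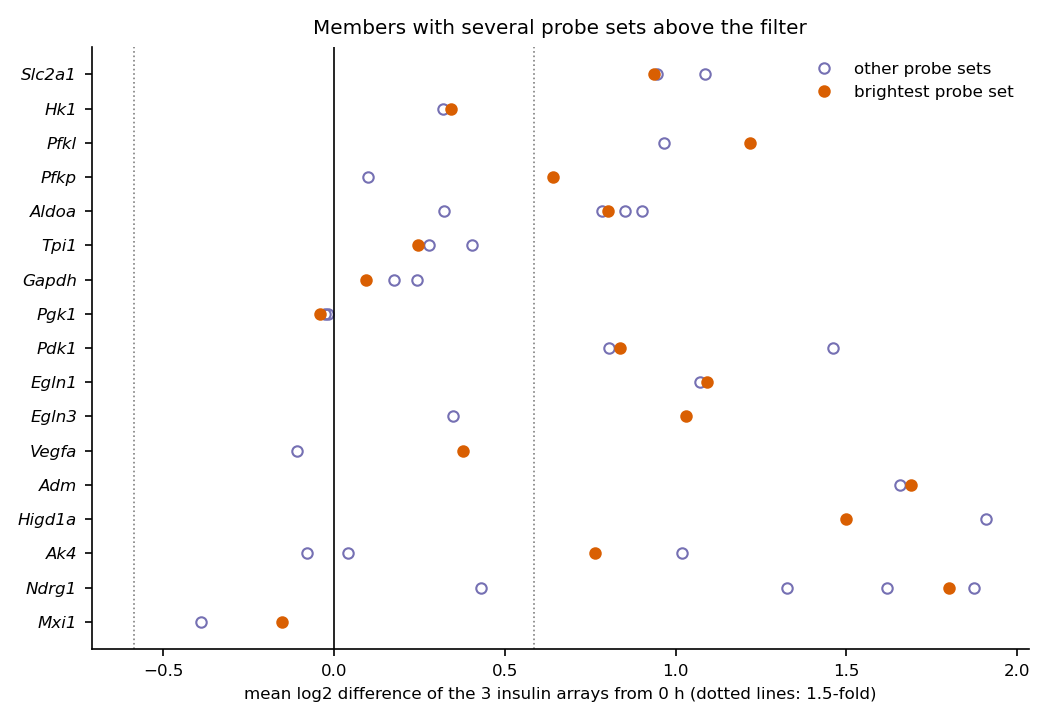
Mean log2 difference of the 3 insulin arrays from 0 h (horizontal axis) for every probe set above the filter of the 17 genes with more than 1, with the brightest filled and the others open, and dotted lines at 1.5-fold. For 15 of 17 genes all probe sets lie on 1 side of 0, the exceptions being Vegfa and Ak4.

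Differences between insulin arrays do not involve the 0 h array. At 6 h 21 of the 30 genes had their highest intensity among the 3 insulin arrays, against 32.5% of all genes. At 12 h 7 were highest and at 24 h 2, against 4684 and 3193 of all 11662 genes. Lower at 24 h than at 6 h by any amount were 26 of 30, against 50.7% of all genes. At least 1.2-fold lower were 8 of 30 at 12 h than at 6 h (4.07% of all genes) and 10 of 30 at 24 h than at 6 h (3.91%). At least 1.2-fold higher were 2 of 30 at 12 h (8.39%) and 2 of 30 at 24 h (7.19%). Both comparisons share the 6 h array, which has no replicate, so a property of that array and the time of 6 h cannot be told apart.

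Fewer genes differed between 12 and 24 h. At least 1.2-fold lower were 3 of 30 (3.47% of all genes), namely Pfkfb3, Adm and Ak4, and 0 of 30 were higher by that much (3.58%). The median log2 differences of the 30 were -0.13 for 12 h minus 6 h, -0.16 for 24 h minus 6 h and -0.04 for 24 h minus 12 h. Over all genes they were 0.03, 0.00 and -0.03. Car9 had the same value at 12 and 24 h and was counted at 12 h.

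**Figure D4:**
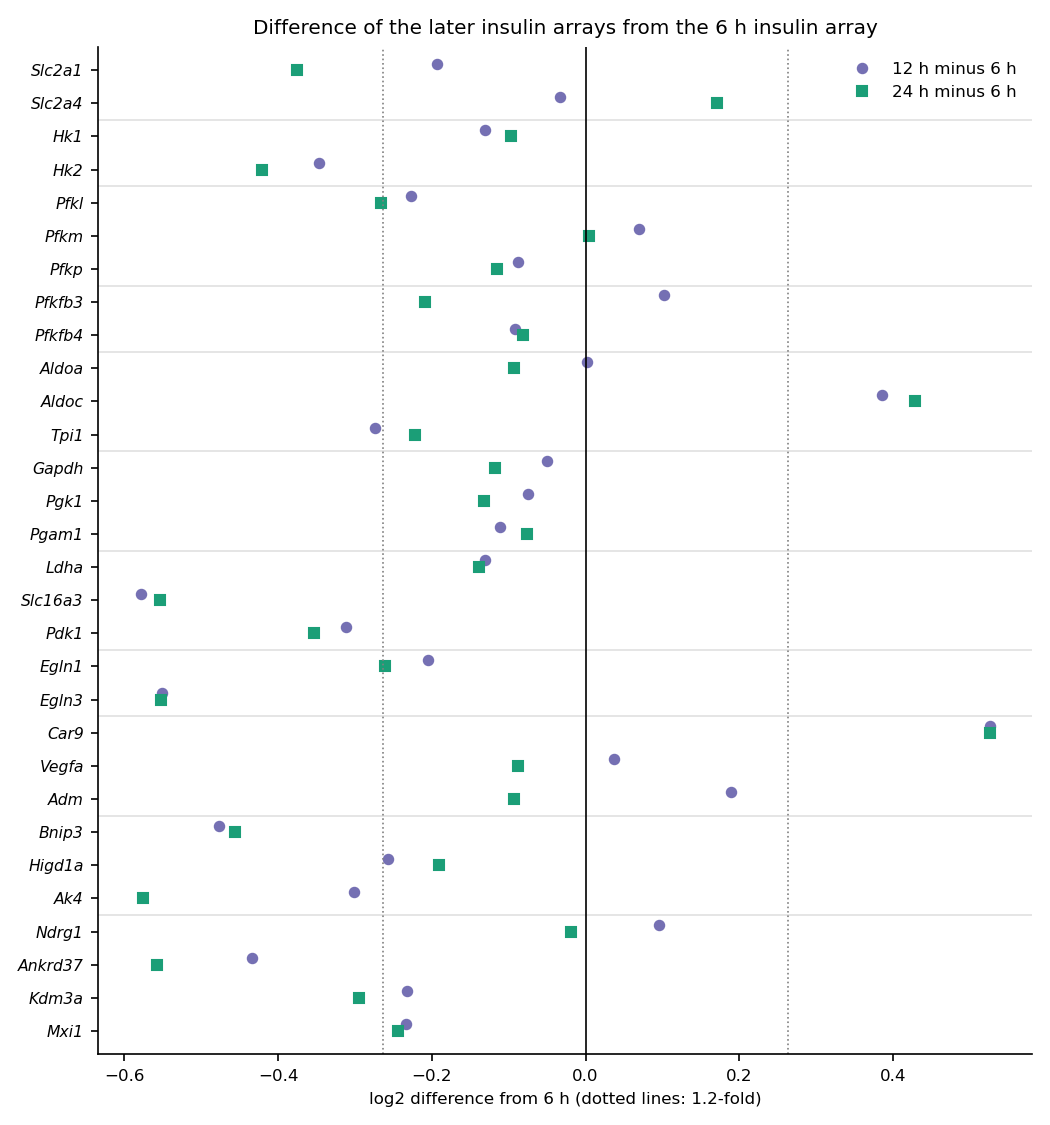
Log2 difference of the 12 h and 24 h insulin arrays from the 6 h insulin array (horizontal axis) for the 30 genes above the filter, with 1 point per array and dotted lines at 1.2-fold. Most points lie left of 0, farthest for Slc16a3, Ak4, Ankrd37 and Egln3, while Car9 and Aldoc lie right of the upper line.

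The genes farthest below their 6 h level came from several steps. Relative to 6 h, Slc16a3 at 12 and 24 h was 1.49 and 1.47-fold lower, Egln3 1.47 and 1.47-fold and Bnip3 1.39 and 1.37-fold. Ankrd37 was 1.35 and 1.47-fold lower, Ak4 1.23 and 1.49-fold and Hk2 1.27 and 1.34-fold. Pdk1 was 1.24 and 1.28-fold lower, and Slc2a1 differed by -0.19 and -0.38 in log2. Kdm3a, lower than 0 h, and Mxi1, close to it by the probe set used, were 1.18 and 1.23-fold and 1.18 and 1.18-fold below 6 h as well.

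The bright enzymes of the pathway are given as log2 differences. In log2 from 6 h at 12 and 24 h, Ldha differed by -0.13 and -0.14, Pgk1 by -0.07 and -0.13, Gapdh by -0.05 and -0.12 and Pgam1 by -0.11 and -0.08. The other Pgk1 probe sets differed less at 24 h, by -0.006 and -0.015. Gapdh was read from its 5′ control set, which also enters the 3′ over 5′ ratio. Its middle and 3′ sets differed by -0.10 and -0.02 at 24 h. Tpi1 differed by -0.27 and -0.22, past 1.2-fold at 12 h by that probe set alone (-0.09 and -0.21 by the others). These 5 were highest at 6 h among the insulin arrays by the probe set used, while Aldoa was highest at 12 h and differed by 0.00 and -0.09.

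A few genes did not lie below their 6 h level at 24 h. At 12 h 22 of the 30 were lower than at 6 h. Pfkfb3, Adm, Ndrg1, Vegfa and Aldoa were above it at 12 h only, each by less than 1.2-fold. Car9 was 1.44 and 1.44-fold higher at 12 and 24 h than at 6 h, and Aldoc 1.31 and 1.35-fold. Pfkm differed by 0.07 and 0.00 and Slc2a4 by -0.03 and 0.17 in log2, both under 1.2-fold. The set therefore held 4 genes above their 6 h level at 24 h.

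Counting every probe set of these genes above the filter, 55 of 60 were lower at 24 h than at 6 h, or 91.7%, against 53.3% of 19920 such probe sets of all genes. Of the 30 that were not the brightest of their gene, 29 were lower. For 16 of the 17 genes with several, all probe sets lay on 1 side of the 6 h value, the exception being Aldoa, where 4 of 5 were lower. Probe sets of a gene share its RNA and array and are not replicates.

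The summed macrophage, osteoblast and adipocyte markers were higher at 24 h than at 6 h, by the values given above, and their part in the lower levels of the 30 genes was not tested. From 6 to 24 h the Gapdh 3′ over 5′ ratio went from 0.964 to 1.03 and that of Actb from 1.26 to 1.39. Chromosome medians, which differed between the 0 h and insulin arrays, lay between -0.02 and 0.01 for 24 h minus 6 h on the 14 chromosomes that hold these genes. Against 0 h the medians of those chromosomes ran from -0.24 on chromosome 8 (Egln1 and Ankrd37) to 0.33 on chromosome 4 (Slc2a1, Car9 and Ak4). With them subtracted the medians of the 30 genes were 0.75, 0.57 and 0.52 against 0 h.

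**Figure D5:**
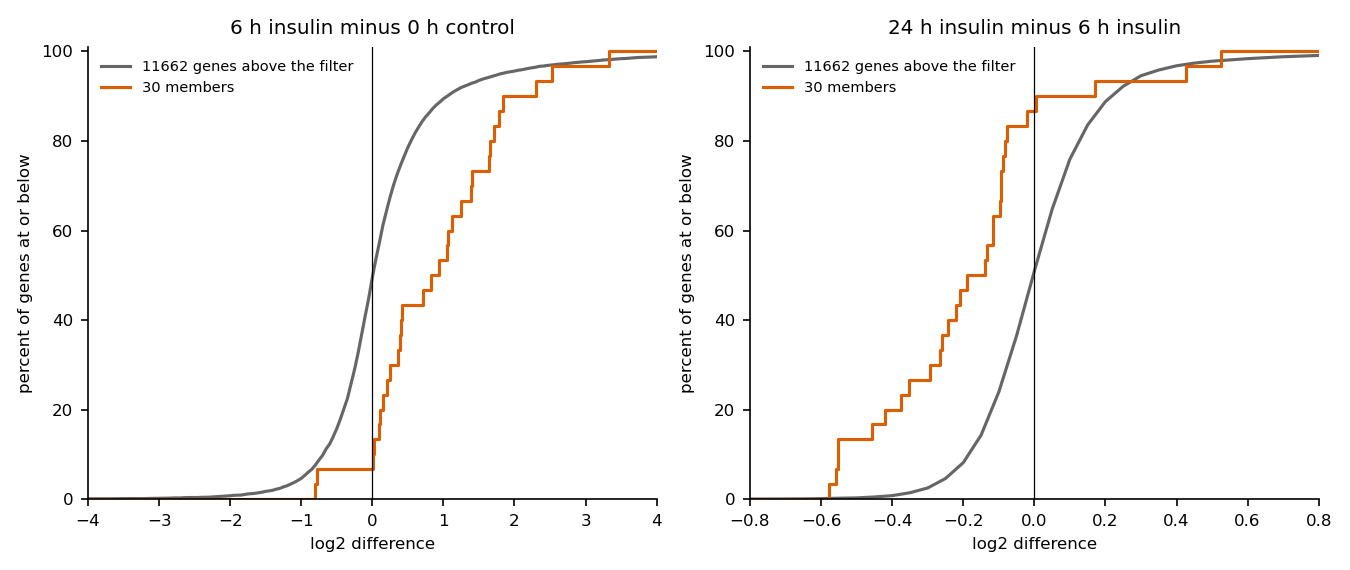
Percent of genes at or below each log2 difference (horizontal axis), for the 30 genes (steps) and all 11662 genes above the filter (smooth line), for 6 h minus 0 h at left and 24 h minus 6 h at right, on different horizontal scales. The steps lie right of the smooth line at left (medians 0.88 and 0.01) and left of it at right (medians -0.16 and 0.00), except at the upper end.

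Other genes of the pathway were read from lists outside the 34. Of 10 HIF factors and regulators above the filter, 2, 2 and 2 were at least 1.5-fold higher than 0 h at 6, 12 and 24 h. These counts were near the shares of all genes (18.6%, 20.5% and 19.5%). Lower by that much were 0, 1 and 1, against 12.8%, 13.3% and 13.3%. The higher genes, Epas1 and Arnt2, lay below the filter value at 0 h and passed through the insulin arrays. They had to differ, so the counts are a description. Hif1a, the oxygen-regulated subunit, had 5892, 5895, 5453 and 5948 by its brightest probe set, within 1.2-fold of 0 h. Epas1, the related alpha subunit, had 62.2, 371, 575 and 648, and Arnt2, a partner subunit, 45.7, 306, 376 and 383, both from below the filter value. Epas1 thus was higher at 24 h than at 6 h by that probe set, unlike most of the 30 genes. Its other probe set was below the filter with 48.7, 46.2, 48.9 and 54.4. The other Arnt2 probe sets, also below the filter, lay 0.10 and 0.64 above 0 h in mean log2 difference, against 2.95.

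Of 22 other hypoxia targets above the filter, 10, 10 and 10 were at least 1.5-fold higher than 0 h, against 18.6%, 20.5% and 19.5% of all genes. Lower by that much were 1, 1 and 1, against 12.8%, 13.3% and 13.3%. Of the higher genes, Car12, Pgf (54.7 at 0 h) and Stc2 (65.1, counted at 6 h only) lay below the filter value at 0 h. They passed through the insulin arrays, so they had to differ and the counts are a description. Plod2, a collagen lysyl hydroxylase, had 232, 3515, 3467 and 4069, P4ha2, a collagen prolyl hydroxylase subunit, 847, 2959, 3097 and 2685 and the carbonic anhydrase Car12 35.6, 119, 124 and 139.6, from below the filter value. Fam162a, a mitochondrial protein, had 3209, 8062, 6961 and 7199. Angptl4, a secreted inhibitor of lipoprotein lipase, was the lower one with 5772, 777, 1001 and 988. Between insulin arrays, 0 of 22 were 1.2-fold lower at 12 h than at 6 h (4.07% of all genes) and 1 of 22 at 24 h (3.91%). At 6 h 11 of 22 were highest (32.5%), and the difference from the 30 genes was not tested.

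Of 16 other glycolysis isozymes and transporters 3, 5 and 4 were 1.5-fold higher than 0 h, against 18.6%, 20.5% and 19.5% of all genes. Lower by that much were 1, 1 and 1, against 12.8%, 13.3% and 13.3%. Slc16a1, the monocarboxylate transporter of most cells, had 1622, 383, 379 and 315 and was 4.24, 4.28 and 5.14-fold lower, the opposite of Slc16a3. Ldhb, the other lactate dehydrogenase subunit, had 793, 1238, 1419 and 1546, and its 4 probe sets lay 0.51 to 0.81 above 0 h in mean log2 difference, highest at 24 h in 3 and at 12 h in 1 of them. Pgam2, the muscle mutase, had 81.4, 177, 202 and 214.

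Around pyruvate, 3, 3 and 3 of 12 genes were 1.5-fold higher than 0 h and 0, 1 and 1 lower. Of all genes 18.6%, 20.5% and 19.5% were higher by that much and 12.8%, 13.3% and 13.3% lower. These shares also stand beside the pentose phosphate and gluconeogenesis counts. Pdk3 had 329, 1098, 1054 and 985 and Pdk2 94.1, 172, 194 and 198, both kinases that inhibit pyruvate dehydrogenase like Pdk1. Pcx, pyruvate carboxylase, had 383, 892, 891 and 823 by a control probe set and 265, 715, 784 and 684 by another, and its 5 probe sets lay 0.11 to 1.45 above 0 h in mean log2 difference. Of 6 pentose phosphate genes 1, 0 and 1 were 1.5-fold higher and none was lower, and of 2 gluconeogenesis genes above the filter G6pc3, a glucose phosphatase, was higher with 334, 594, 653 and 576.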

How the data were processed

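RNA was measured on 4 arrays, 1 per group, grouped by the labels. The deposited table holds linear intensities that the authors obtained with RMA (background correction, quantile normalisation and probe set summary), per the submitters' processing notes; the program, its version and the build were not stated in what was read here. Quantile normalisation makes the arrays' overall distributions alike (medians 65.0 to 65.7), so differences are relative to the rest of the array.

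Intensities were set to log2 here with Python 3.11.15, numpy 2.4.6 and pandas 2.3.3. Of 45101 probe sets 34958 carried 1 symbol and 932 several, by a platform annotation that can be old. A gene was taken at its brightest probe set, and genes with a mean log2 above the median of non-control probe sets were kept. With 1 array a group no test was possible, so a gene was counted at 1.5-fold from 0 h and at 1.2-fold between insulin arrays. Counting was tested on simulated data. All members were named; of each wider list, up to 5 genes farthest from 0 h were named among those 1.5-fold from it in 1 direction at all 3 times. Promoters were printed for the 4 glycolysis and 4 hypoxia members farthest from 0 h with an entry. Marker genes, Hif1a, Pgf, Stc2 and the genes that check the labels were named besides. The members and lists were chosen with earlier results of these data known, and the count of genes highest at 6 h was added after the data were seen. Alternatives were another filter, another fold, the mean of all probe sets, no suffixed probe sets, a loess curve, chromosome medians and other reference arrays.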

Additional observations from a re-analysis of the deposited data

Results flagged for a closer look

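Hk2, the insulin-responsive hexokinase of muscle and fat, lay on opposite sides of its 0 h level at different times. Its log2 difference from 0 h was 0.25 at 6 h and -0.17 at 24 h, with 1 array each. It is given here because the time points point in opposite directions, and the difference between them was not tested. Neither value reached 1.5-fold.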

How the results depend on the processing

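With 1 array a group, no array could be left out within a group. No paired analysis was possible because each group has a single array. Of 182 comparisons with the values reported, 143 stayed within the margin set and 39 moved. At a threshold of 2-fold from 0 h, 10 genes were higher at 12 h and 9 at 24 h, while lower genes numbered 0, 1 and 1 at the 3 times. The upper quartile as filter leaves out 8 of the 30 genes, Car9 and Aldoc among them. It gave medians of 0.77 (6 h) and 0.54 (24 h), 0 genes higher and 5 lower from 6 to 12 h, and 0 higher from 6 to 24 h. Averaging every probe set of a gene left 29 genes, Aldoc not among them, and gave medians of 0.51, 0.35 and 0.31. It took Pfkp and Ak4 across the 1.5-fold line. It left 1 gene higher from 6 to 12 h, 1 higher from 6 to 24 h and 1 lower from 12 to 24 h. Removing chromosome medians gave 0.75, 0.57 and 0.52, left 1 gene lower than 0 h at 12 h and 1 at 24 h, and 1 lower from 12 to 24 h. It also took Ak4 across the line and turned the sign of Hk2, Pfkfb4, Pgk1, Ankrd37 and Mxi1, none of them 1.5-fold from 0 h in mean. Without suffixed probe sets 22 genes were left, Aldoc not among them, and 1 gene was higher from 6 to 12 h and 1 from 6 to 24 h. A threshold of 1.5-fold between insulin arrays left 0 higher and 0 lower in the first comparison, 0 and 0 in the second, and 0 lower from 12 to 24 h. One of 1.1-fold gave 14 lower from 6 to 12 h, 16 lower from 6 to 24 h, and 1 higher from 12 to 24 h. Shares of all genes were not counted at the other thresholds and filters, so these counts are a description. For 24 h minus 6 h, 14.3% of all genes lay at or below a log2 difference of -0.15 and 23.9% at or below -0.1, on either side of 1.1-fold. A loess curve left 1 lower from 12 to 24 h. With the 6, 12 or 24 h array as reference, 0 genes were higher and 0 lower on all other arrays, against 16 and 2 with 0 h. The dimmest Ak4 probe set above the filter gave -0.079 against 0 h. Genes highest at 6 h numbered 17 to 23 over the alternatives, out of unlike totals. The 17 were of 22 genes, by the upper quartile filter and without suffixed probe sets, and the 23 of 29, by the mean of probe sets. Where the construction does not show it, the cause was not tested. Low intensities (Slc16a3, Car9, Pfkfb3 and Aldoc at 0 h) limit what a fold shows.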
